A study of Mus musculus with 10 samples.

Results

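The 10 genes described here encode chaperones of the cytosol: the HSP70 proteins Hspa1a, Hspa1b and Hspa8, the HSP110 protein Hsph1, the HSP90 proteins Hsp90aa1 and Hsp90ab1, and the DNAJ proteins Dnajb1, Dnajb5, Dnaja1 and Dnaja4. They were chosen by gene symbol from the 40690 genes of the count table, and all 10 were present. RNA came from the heart ventricles of 10 male C57BL/6 mice aged 10 weeks. The naive group held 5 mice that had no operation, and the sham group held 5 mice with a sham operation for ischemia-reperfusion, the control surgery for coronary occlusion and reopening. The comparison asks how ventricular transcripts differ after the control surgery. Mice of both groups were wild type, and the sources used here do not give the time between surgery and tissue collection.

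HSP70 proteins bind stretches of unfolded protein and release them in an ATP cycle. DNAJ proteins bring clients to HSP70 and speed its ATP hydrolysis, and HSP110 proteins exchange its nucleotide. HSP90 proteins receive partly folded clients from HSP70, among them kinases and steroid receptors, and in heart muscle this machinery also helps fold sarcomere proteins and clear damaged ones. Under heat or other protein stress, heat shock factor HSF1 binds repeats of the letters GAA and TTC upstream of the inducible genes, of which Hspa1a, Hspa1b, Hsph1 and Dnajb1 are standard examples.

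Upstream sequences are shown for 4 members on which the results turn. Hspa1a and Hspa1b are neighbouring copies whose reads can be confused, and Dnaja4 and Dnajb5 were the members whose naive and sham libraries did not overlap. The sequences are RefSeq windows on GRCm38.p6 that cover the 250 bases before an annotated start, each read along the strand of its gene. For Dnaja4 and Dnajb5 only the stretch outside annotated exons is printed. Capitals mark matches to GAANNTTC or TTCNNGAA, which are 2 facing units of the heat shock element.
Hspa1a, chr17:34972157-34972406, minus strand: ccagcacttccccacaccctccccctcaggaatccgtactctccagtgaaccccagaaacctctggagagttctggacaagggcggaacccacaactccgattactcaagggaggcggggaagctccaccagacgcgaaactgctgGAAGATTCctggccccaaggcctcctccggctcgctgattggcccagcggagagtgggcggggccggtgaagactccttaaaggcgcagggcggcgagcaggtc
Hspa1b, chr17:34959239-34959488, minus strand: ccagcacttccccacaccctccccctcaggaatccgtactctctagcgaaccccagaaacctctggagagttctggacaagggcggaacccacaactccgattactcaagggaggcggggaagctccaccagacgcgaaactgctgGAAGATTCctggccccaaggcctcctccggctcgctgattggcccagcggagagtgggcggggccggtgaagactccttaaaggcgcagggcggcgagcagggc
Dnaja4, chr9:54699414-54699513, plus strand: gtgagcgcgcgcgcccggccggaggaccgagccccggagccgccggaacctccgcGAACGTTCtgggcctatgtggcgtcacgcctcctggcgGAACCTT
Dnajb5, chr4:42949617-42949813, plus strand: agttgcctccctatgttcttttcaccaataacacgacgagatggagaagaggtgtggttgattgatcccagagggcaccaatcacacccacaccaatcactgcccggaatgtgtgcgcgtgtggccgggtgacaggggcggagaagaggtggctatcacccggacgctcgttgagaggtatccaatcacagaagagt
The windows of Hspa1a and Hspa1b were identical at 247 of 250 bases. Counted from 1 at the 5′ end of the window, with the Hspa1a base first, the 3 differences were C44T, T47C and T249G, and both windows held GAAGATTC with its first base at position -104 from the start. In the second capital run of Dnaja4 the last letter of the match lies in an annotated exon and is not printed. The Dnajb5 stretch held no such match. RefSeq windows were found for 7 of the 10 members, 14 windows in all, some of them overlapping. The 2-unit letters stood in 6 of these 14 windows, of 5 members (Hspa1a, Hspa1b, Hsph1, Dnaja4 and Dnaja1), and in 12.8% of all 32851 windows of this length. The same letters with a further alternating unit, the 3-unit element, stood in 0 of the 14 windows and in 0.466% of all windows. Both strands were covered by these letters, a 3-unit match also holds 2-unit matches, and a match describes letters and not a bound factor. The 2-unit matches of Hsph1 and Dnaja1 lay wholly within annotated exons. Exon bases were kept in these counts and in the shares over all windows. The matches of Hspa1a and Hspa1b are the same letters in near-identical windows, and the Hsph1 windows overlap.

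Naive libraries held 9683181 to 17577906 counted reads and sham libraries 10654107 to 21537135, and 3 counts corresponded to 0.139 CPM (counts scaled to a library of 1e6) in the deepest library and 0.310 CPM in the shallowest. The fit covered 13622 genes, with 2342 higher calls and 2113 lower calls for sham against naive ventricles (edgeR's quasi-likelihood test, adjusted by Benjamini-Hochberg, p under 0.05), 32.7% in either direction. Summed markers of cardiomyocytes took 86439 to 88712 CPM in naive and 64352 to 73711 CPM in sham libraries. Atrial markers took 39.1 to 55.0 CPM in naive and 37.2 to 134 CPM in sham libraries, with 1 of 2 tested higher (Nppa, 0.87) and 0 lower, while Sln had 0 counts over the naive and 1 count over the sham libraries. Summed macrophage markers took 199 to 240 CPM in naive and 561 to 644 CPM in sham libraries, fibroblast markers 2163 to 2688 and 7930 to 12910 CPM, and neutrophil markers 1.74 to 4.48 and 14.5 to 31.1 CPM. A sum weighs abundant genes most. Of the 7 fibroblast markers 5 were higher and 0 lower, with a median log2 fold change of 0.68, and of the 6 macrophage markers 6 were higher (median 1.63). Endothelial markers took 1097 to 1364 and 999 to 1103 CPM, smooth muscle and pericyte markers 429 to 602 and 449 to 670 CPM, mesothelial markers 34.3 to 45.1 and 14.5 to 24.2 CPM, and erythroid markers 42.9 to 346 and 66.6 to 287 CPM. Lymphocyte markers stayed at 1.96 CPM or less and adipocyte markers at 1.90 CPM or less in every library.

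In sham ventricles 4 of the 10 chaperone genes were lower than in naive ventricles, and none was higher. Dnajb5 and Dnaja4 fell by 0.65 and 0.67 on the log2 scale, with every sham library below every naive library. Hsph1 fell by 0.80 and Hsp90ab1 by 0.35, with naive and sham libraries that overlapped. Hspa1a, Hspa1b, Hspa8, Hsp90aa1, Dnajb1 and Dnaja1 did not pass the test. All 10 members passed the filter on low counts, and the median log2 fold change over them was -0.49, beside -0.05 over all 13622 tested genes. It was -0.25 without naive 4 and -0.32 with limma voom. Lower calls made up 15.5% of all tested genes and higher calls 17.2%. All sham libraries lay below all naive libraries in 2 of the 10 members and in 9.18% of tested genes. In RNA from whole ventricle, fewer cells of a type and less RNA per cell cannot be told apart. Of the 8 cardiomyocyte markers 7 were lower and 0 higher in sham, with a median log2 fold change of -0.38, and their part in the chaperone differences was not tested.

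**Figure D1:**
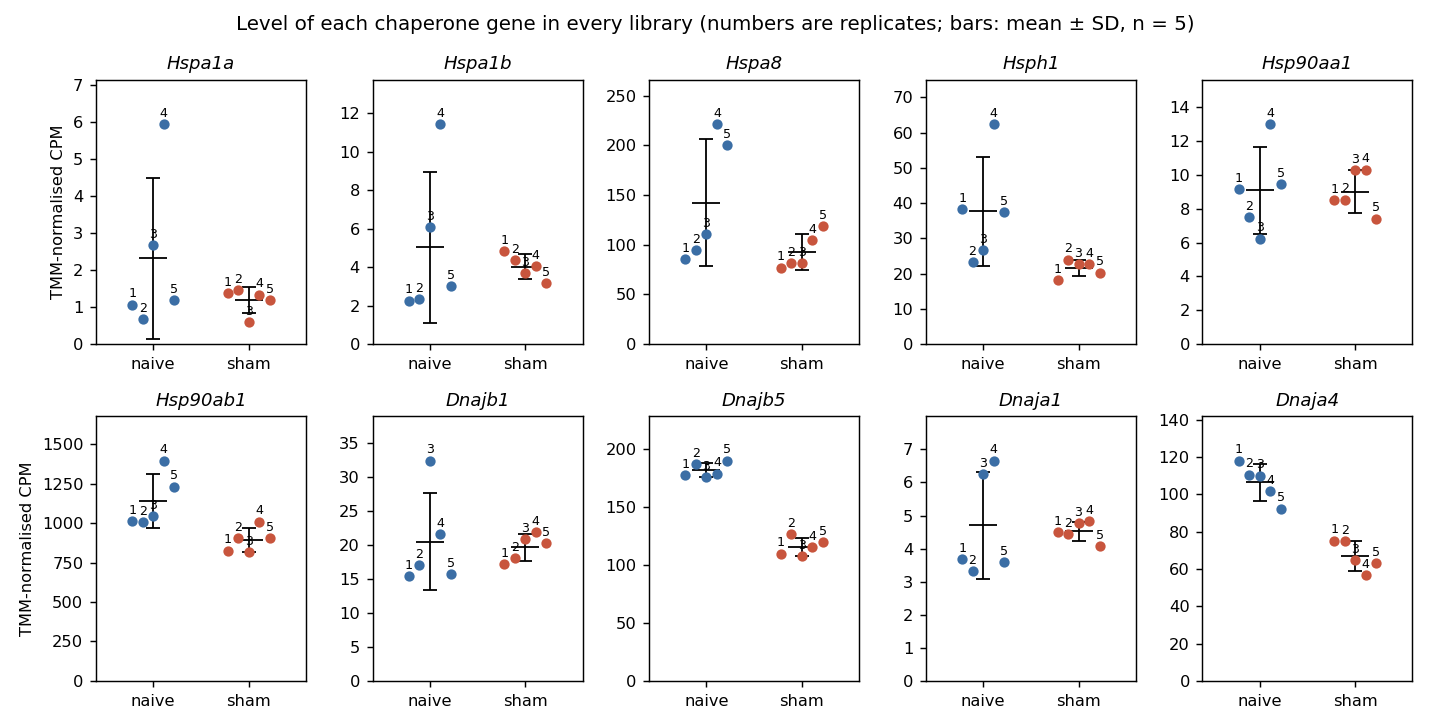
TMM-normalised CPM (vertical axis, from 0) of the 10 chaperone genes in the 5 naive (blue) and 5 sham (red) libraries; numbers give the replicate and bars the mean ± SD. The groups are apart for Dnajb5 and Dnaja4, and naive 4 is the highest of the 10 libraries for 7 genes, a count not set against all tested genes.

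Among the DNAJ genes, Dnajb5 gave the smallest adjusted p of the group. It encodes a class B DNAJ protein that is known to bind the histone deacetylase HDAC4 in heart muscle cells, and it lies on chromosome 4, 42949814 to 42959425, plus strand (GRCm38, GENCODE M21), with 4 merged exons. The 5 naive libraries, from 1 to 5, held 178, 187, 176, 179 and 190 CPM, and the 5 sham libraries 110, 127, 108, 116 and 120 CPM. The lowest naive library thus stood well above the highest sham library. The means were 182 ± 6.36 and 116 ± 7.67 CPM (SD, n = 5), 1.57 times higher in naive, and the log2 fold change, sham against naive, was -0.65 ± 0.07 (SE; adjusted p = 6.38e-06; 95% interval -0.81 to -0.49). None of the 50-base stretches of its annotated transcripts occurs in a transcript of another gene, so its reads are not shared with a copy at that length.

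Dnaja4, a class A DNAJ gene on chromosome 9, 54698873 to 54716315, plus strand, with 8 merged exons, fell by a similar amount. Its naive libraries held 118, 111, 110, 102 and 92.3 CPM and its sham libraries 75.3, 75.1, 64.7, 56.7 and 63.1 CPM. Again no sham library reached the naive range. The means were 107 ± 9.87 and 67.0 ± 8.07 CPM, and the log2 fold change was -0.67 ± 0.10 (adjusted p = 6.71e-05, 95% interval -0.88 to -0.46). Of its exon bases 44.1% also lie in exons of Wdr61 on the opposite strand, and the libraries do not mark strand. Wdr61 itself had 405 counts over the naive and 557 over the sham libraries, against 993 to 1797 counts of Dnaja4 in each naive library and 869 to 1548 in each sham library. With the counts of both genes summed, the log2 fold change was -0.63 ± 0.09 (adjusted p = 4.9e-05). The sources used here do not say how reads over exon bases of both genes were counted. If they were counted for neither gene, the sum does not bring them back, so it cannot settle the part of the overlap.

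Dnajb1 and Dnaja1 did not pass the test. Dnajb1, an inducible partner of HSP70 (chromosome 8, 83608193 to 83612653, plus strand), held 15.5 to 32.5 CPM in naive and 17.2 to 21.9 CPM in sham libraries. Its log2 fold change was -0.06 ± 0.18 (adjusted p = 0.843, 95% interval -0.43 to 0.32), and all 5 sham libraries lay above the naive median. Naive 3, at 32.5 CPM, was its highest library, ahead of naive 4 and sham 4 at 21.6 and 21.9 CPM. Dnaja1, a farnesylated class A protein and general HSP70 partner (chromosome 4, 40722150 to 40737149, plus strand), held 3.32 to 6.66 CPM in naive and 4.08 to 4.82 CPM in sham libraries. Its log2 fold change was -0.06 ± 0.20 (adjusted p = 0.860, 95% interval -0.49 to 0.37), from 31 to 108 counts per library. Scaled by library size alone, the direction of both genes turned to 0.21, again short of the threshold. Of the exon bases of Dnaja1, 10.8% lie in exons of other genes, mostly of Smu1 on the opposite strand.

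Hsp90ab1, the constitutive HSP90 (chromosome 17, 45567775 to 45573271, minus strand, 9 merged exons), was the most abundant member. Its naive libraries held 1014, 1009, 1044, 1398 and 1232 CPM and its sham libraries 827, 907, 817, 1011 and 907 CPM. Only sham 4 reached into the naive range, just above the lowest naive library. The means were 1139 ± 171 and 894 ± 78.2 CPM, and the log2 fold change was -0.35 ± 0.11 (adjusted p = 0.0179, 95% interval -0.57 to -0.13). The call ended without sham 2 (-0.33) and without sham 3 (-0.32), at an adjusted p of 0.0506 in each case, and with library size alone, where the log2 fold change was -0.09 (adjusted p = 0.590). Over its alternatives the adjusted p ran from 0.000405 to 0.590.

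Hsp90aa1, the HSP90 known to be induced by stress (chromosome 12, 110690605 to 110702728, minus strand), stood far below Hsp90ab1. It held 6.24 to 13.0 CPM in naive and 7.42 to 10.3 CPM in sham libraries, from 77 to 231 counts. The log2 fold change was -0.01 ± 0.17 (adjusted p = 0.973). Its 95% interval ran from -0.38 to 0.36, so that a difference of either sign within those bounds is not excluded. Of the 50-base stretches of its transcripts 47.5% occur in other genes, chiefly the pseudogene Gm12346, which had 10 counts over the naive and 15 over the sham libraries. The sources used here do not say how reads that map to several places were counted.

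The counts of Hsp90aa1 were set against those of Hsp90ab1 within each library, a ratio that no scaling factor changes. In naive libraries 1 to 5 Hsp90aa1 had 0.904, 0.744, 0.598, 0.931 and 0.769% of the Hsp90ab1 counts, and in sham libraries 1.03, 0.941, 1.26, 1.02 and 0.818%. Of the sham libraries only sham 5 lay within the naive range. The mean log2 ratio was -7.00 ± 0.26 for naive and -6.64 ± 0.23 for sham (SD, n = 5), a difference of 0.36 with an exact two-sided permutation p of 0.0476. Adjusted over the 2 ratios tested it was 0.0952 and did not pass.

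The HSP70 genes Hspa1a and Hspa1b are single-exon copies on the minus strand of chromosome 17, at 34969190 to 34972156 and 34956436 to 34959238, and are known for near silence in unstressed cells and strong induction by heat. Hspa1a held 1.07, 0.677, 2.69, 5.96 and 1.2 CPM in naive libraries and 1.39, 1.46, 0.604, 1.34 and 1.18 CPM in sham libraries. Hspa1b held 2.26, 2.34, 6.08, 11.4 and 3.03 CPM in naive and 4.85, 4.37, 3.69, 4.06 and 3.18 CPM in sham libraries. Both copies were highest in naive 4 and next highest in naive 3, and each of the other naive libraries lay below most sham libraries. The log2 fold changes were -0.95 ± 0.50 for Hspa1a (adjusted p = 0.167, 95% interval -2.03 to 0.13) and -0.34 ± 0.40 for Hspa1b (adjusted p = 0.562, -1.20 to 0.53). Without naive 4 they were -0.23 and 0.21, so the size for Hspa1a and the direction for Hspa1b rested on that library. With no filter on low counts Hspa1a passed, at -0.93 (adjusted p = 0.0185, against 0.0185 to 0.692 over its alternatives).

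Counts of these copies were low, 9 to 76 per library for Hspa1a and 19 to 146 for Hspa1b. Of their 50-base stretches 66.3% and 62.3% occur in other genes, for the most part in each other, so the split of reads between them is uncertain. Summed to a single gene they stood at 7.35 ± 6.08 CPM in naive and 5.22 ± 0.871 CPM in sham libraries, with a fitted difference of -0.50 ± 0.45 on the log2 scale (adjusted p = 0.435). The sum was 17.4 CPM in naive 4 and 8.77 CPM in naive 3, against 3.01 to 4.23 CPM in the other naive libraries and 4.29 to 6.24 CPM in the sham libraries.

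Hspa8, the constitutive HSC70 that also uncoats clathrin vesicles (chromosome 9, 40800984 to 40810087, plus strand), was the most abundant HSP70 gene of the members. It held 85.3, 94.5, 110, 222 and 200 CPM in naive and 76.9, 81.5, 81.6, 105 and 118 CPM in sham libraries. Naive 4 and naive 5 stood apart from the other 8 libraries, among which the groups overlapped, and sham 4 and sham 5 were the highest sham libraries. The log2 fold change was -0.62 ± 0.28 (adjusted p = 0.121, 95% interval -1.25 to 0.01). It passed with 1 surrogate variable in the fit (-0.54, adjusted p = 9.64e-05, the lowest of its alternatives, which reached 0.390). Of the 50-base stretches of Hspa8 transcripts 39.4% occur in other genes, among them the pseudogene Gm15459, which had 0 counts in either group. How reads from such stretches were counted is not known, so the level of Hspa8 and ratios to it are uncertain. The combined counts of Hspa1a and Hspa1b came to 2.11 to 7.94% of those of Hspa8 in naive and 3.68 to 8.11% in sham libraries. The log2 ratio was -4.51 ± 0.84 and -4.14 ± 0.45 (n = 5), a difference of 0.36 that did not pass (exact two-sided permutation p = 0.397). It was 0.10 without naive 5, 0.58 without naive 3 and 0.57 without naive 4.

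Hsph1, the HSP110 protein that acts as an exchange factor for HSP70 (chromosome 5, 149614287 to 149636376, minus strand, 19 merged exons), held 38.3, 23.3, 26.6, 62.5 and 37.5 CPM in naive and 18.1, 24.0, 22.6, 22.8 and 20.3 CPM in sham libraries. Sham 2 alone reached into the naive range, and naive 4 was again the highest library. The means were 37.6 ± 15.4 and 21.6 ± 2.34 CPM, and the log2 fold change was -0.80 ± 0.22 (adjusted p = 0.0149, 95% interval -1.28 to -0.32). Without naive 4 it was -0.54 (adjusted p = 0.0103). Among fits without a replicate block, the call ended with limma voom (-0.42, adjusted p = 0.0514), with library size alone (-0.53, adjusted p = 0.0699), and without naive 1 and sham 4 together (-0.79, adjusted p = 0.0933). These are among alternatives with adjusted p from 0.00121 to 0.0933.

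**Figure D2:**
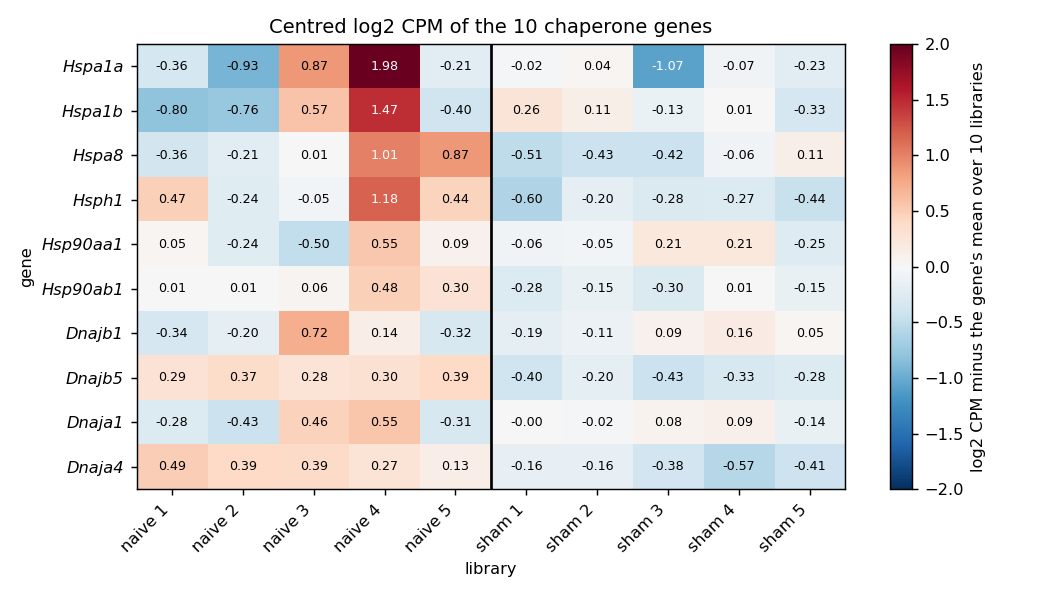
Log2 CPM of each gene minus its own mean over the 10 libraries (colour and printed value), genes in rows and libraries in columns, with a line between naive and sham. Naive 4 stands out in the HSP70 and HSP90 rows and in Hsph1, naive 3 in Dnajb1, and the rows of Dnajb5 and Dnaja4 change sign between the groups.

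The naive libraries differed among themselves more than the sham libraries did for most of these genes. The coefficient of variation (CV, the SD as a percentage of the mean CPM) was larger in naive for 8 of the 10 members, all but Dnajb5 and Dnaja4, and for 58.0% of tested genes. In naive and sham libraries it was 93.7 and 28.9% for Hspa1a, 77.7 and 15.8% for Hspa1b, 44.7 and 19.5% for Hspa8, and 40.8 and 10.9% for Hsph1. For Dnajb1 it was 34.9 and 9.88%, and for Dnaja1 34.2 and 6.57%. The median tested gene had 15.5% in naive and 13.5% in sham libraries, so the sham values of Hsph1, Dnajb1 and Dnaja1 lay below that of the median gene. Dnajb5 was steady in both groups, with 3.50 and 6.61%. Counting noise alone would give 18.3 and 21.8% for Hspa1a and 12.8 and 11.3% for Dnaja1, from their mean counts. The sham CV of Dnaja1, 6.57%, thus lay below its counting noise of 11.3%, and cannot be read as a low spread between mice. Naive 4 was the highest of all 10 libraries in 7 members, all but Dnajb1, Dnajb5 and Dnaja4, and no sham library was the highest in any. The share of all tested genes highest in naive 4 was not counted, so this cannot be called particular to the members. Without naive 4 the CV of the naive libraries was still the larger in 8 members and in 55.7% of tested genes, at 62.5% for Hspa1a and 24.2% for Hsph1. These spreads were not tested against each other.

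**Figure D3:**
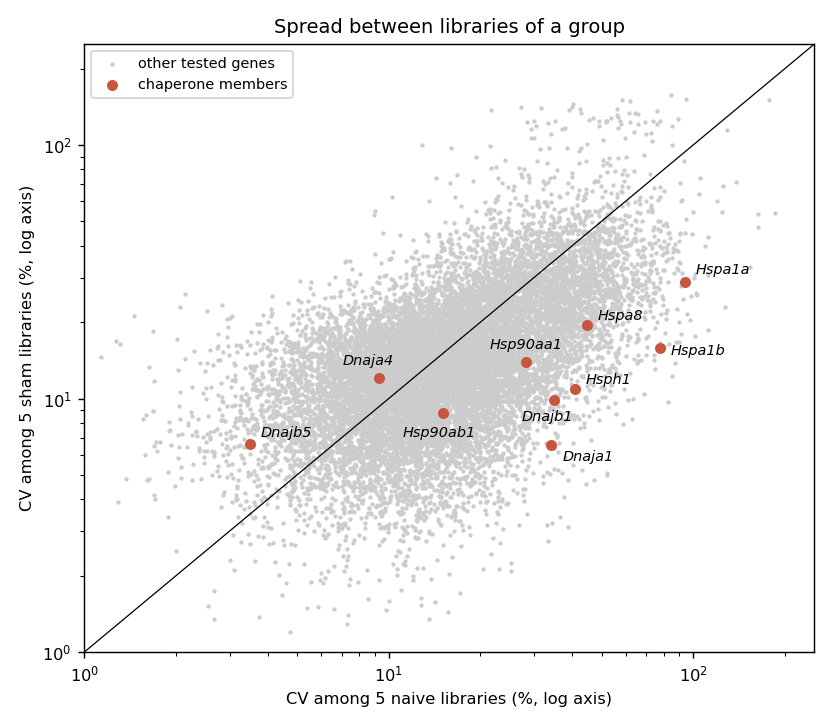
Coefficient of variation among the 5 naive (horizontal) and 5 sham (vertical) libraries, both in percent on log axes, for all tested genes (grey) and the 10 chaperone genes (red). Of the chaperone genes 8 lie below the line of equal values, on the side of larger spread in naive.

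Levels were compared between genes as CPM per kilobase of merged exons. Bases shared with other genes were kept in these lengths, among them 44.1% of the exon bases of Dnaja4. Reads from such bases and from copies may not be counted in full, so the order between genes is approximate. In naive ventricles Hsp90ab1 stood first at 380 ± 57.1 CPM per kilobase. Hspa8 at 33.1 ± 14.8, Dnajb5 at 30.7 ± 1.07 and Dnaja4 at 29.7 ± 2.75 CPM per kilobase followed and overlapped each other. Dnajb1 at 6.39 ± 2.23, Hsph1 at 5.18 ± 2.11, Hsp90aa1 at 2.31 ± 0.651, Hspa1b at 1.80 ± 1.40, Hspa1a at 0.781 ± 0.732 and Dnaja1 at 0.545 ± 0.187 CPM per kilobase came last, each overlapping the next. The order was the same in sham ventricles, from 298 ± 26.1 CPM per kilobase for Hsp90ab1 to 0.524 ± 0.0344 for Dnaja1 and 0.402 ± 0.116 for Hspa1a, which exchanged the last places with overlapping values. In sham the ranges of Dnajb1 and Hsph1, of Hsp90aa1 and Hspa1b, and of Hspa1b and Hspa1a no longer overlapped. The CPM of the 10 genes summed to 1456 to 2021 in naive and 1134 to 1354 in sham libraries. Hsp90ab1 made up 68.7 to 69.3% of that sum in naive and 71.7 to 74.7% in sham libraries, a description without a test.

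The other chaperone genes and their partners, 127 genes in 12 lists, were counted in the same fit. More lower than higher calls stood in 9 of the 12 lists, while 15.5% of all tested genes were lower and 17.2% higher. Among the 9 were lists near that share of lower calls, the DNAJC genes (2 of 15) and the immediate early genes (2 of 13). Of the 8 other HSP70 and HSP110 genes 3 were lower and 0 higher, with a median log2 fold change of -0.22: Hspa12a at -0.50 ± 0.10, Hspa4l at -0.45 ± 0.14 and Hspa12b at -0.36 ± 0.08. Of the 6 other DNAJA and DNAJB genes tested, of 10 listed, 3 were lower and 0 higher (median -0.28). They were Dnajb6, known in muscle for suppressing aggregates (-0.48 ± 0.12), Dnajb2 (-0.43 ± 0.08) and Dnaja2 (-0.29 ± 0.09). Of the 15 DNAJC genes tested outside the endoplasmic reticulum and mitochondria 2 were lower and 0 higher, Dnajc27 at -0.52 ± 0.11 and Dnajc16 at -0.36 ± 0.09, with a median of -0.05, that of all tested genes. The third by p, Dnajc21, was at -0.27 and did not pass (adjusted p = 0.0579).

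Of 17 co-chaperones of HSP90 tested 5 were lower and 1 higher (median -0.22), with 3 lower without sham 2, 2 lower without sham 5 and 2 higher with DESeq2. Fkbp5, an immunophilin of steroid receptor complexes that glucocorticoids are known to induce, rose from 19.4 ± 4.48 to 37.5 ± 2.17 CPM, by 0.95 ± 0.13 on the log2 scale (adjusted p = 3.14e-05). Its relative Fkbp4, in the same receptor complexes, fell from 617 ± 35.0 to 433 ± 28.5 CPM (-0.51 ± 0.08), and the myosin chaperone Unc45b fell from 243 ± 8.12 to 176 ± 11.4 CPM (-0.46 ± 0.07). Of 10 co-chaperones and exchange factors of HSP70 3 were lower and 0 higher (median -0.17), and 1 was lower without naive 1, naive 2, sham 2, sham 3 or sham 5. These were Bag5 at -0.62 ± 0.21, Bag2 at -0.23 ± 0.09, and Bag3, which helps clear damaged sarcomere proteins, from 932 ± 117 to 685 ± 93.9 CPM (-0.44 ± 0.11). Of the 5 heat shock factor genes and partners tested 2 were lower and 0 higher (median -0.22). Hsf1, the factor that drives the heat shock response, fell from 81.8 ± 8.13 to 70.0 ± 2.08 CPM (-0.22 ± 0.08, adjusted p = 0.0434), Hsbp1l1 fell by 0.82 on the log2 scale, and Hsf2 was at -0.41 without passing (adjusted p = 0.102). The count of lower genes in this list was 3 with limma voom. It was 1 with DESeq2, with RLE factors, with a GC correction with or without a replicate block, and without naive 1, naive 4 or sham 1. It was 0 with upper quartile factors, with library size alone, with no filter, and without naive 1 and sham 4 together. Leaving out naive 2, naive 3, sham 2, sham 3, sham 4 or sham 5 also gave 0.

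Small heat shock proteins, which hold unfolded proteins without ATP, were lower in 6 of 7 cases and higher in 0 (median -0.44), led by Hspb8 (-0.56 ± 0.10), the partner of Bag3, with Hspb6 (-0.53 ± 0.10) and Hspb1 (-0.44 ± 0.11). Of 11 mitochondrial chaperones 5 were lower and 0 higher (median -0.28), among them the HSP70 gene Hspa9 (-0.52 ± 0.11), the chaperonin Hspd1 (-0.44 ± 0.09) and Dnaja3 (-0.42 ± 0.07). None of 14 subunits of the TRiC chaperonin and prefoldin passed (median -0.07). The count was also 0 at an unadjusted p under 0.05 in the edgeR test, and 0 in DESeq2. The smallest p belonged to Cct7 at -0.21, Tcp1 at -0.24 and Cct4 at -0.16. Among 10 chaperones of the endoplasmic reticulum 2 were higher and 0 lower (median 0.17; 4 higher with DESeq2), Sdf2l1 at 0.60 ± 0.17 and Dnajc10 at 0.44 ± 0.09, with Dnajb9 at -0.36 and not past the threshold. The cold-inducible RNA-binding genes Rbm3 (0.18) and Cirbp (-0.06) did not pass, with 0 at an unadjusted p under 0.05 and 0 in DESeq2. Of 13 immediate early genes 2 were lower, Nr4a1 (-1.58 ± 0.37) and Dusp1 (-0.60 ± 0.11), and Junb was higher (0.75 ± 0.19), with a median of -0.09.

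The scaling mattered to these counts. With library size alone the median of all tested genes rose by 0.26 and stood at 0.22, and 94.0% of calls were higher, against 52.6% with TMM factors. The members' median was then -0.22, and 2 members, Dnajb5 (-0.38) and Dnaja4 (-0.40), were lower. Small heat shock proteins had 1 lower gene and co-chaperones of HSP90 had 1, while the lists of HSP70, DNAJ, HSP70 co-chaperone, heat shock factor and mitochondrial genes had 0 lower genes each. Medians then turned above 0 for the other HSP70 and HSP110 genes (0.04), DNAJC genes (0.21), co-chaperones of HSP90 (0.05) and of HSP70 (0.10), heat shock factors (0.05), TRiC and prefoldin (0.19) and immediate early genes (0.18). They stayed below 0 for small heat shock proteins (-0.18), and at -0.01 for the other DNAJA and DNAJB genes and for mitochondrial chaperones. Of the chaperones of the endoplasmic reticulum 6 were then higher. Relative to the median of all tested genes, Dnajb5 stood at -0.60 and Dnaja4 at -0.62 with either scaling. A change of scaling moves all genes by nearly the same amount, so such relative values stay alike for any gene. Those of Hspa1a, which did not pass, were -0.90 with TMM factors and -0.89 with library size alone.

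**Figure D4:**
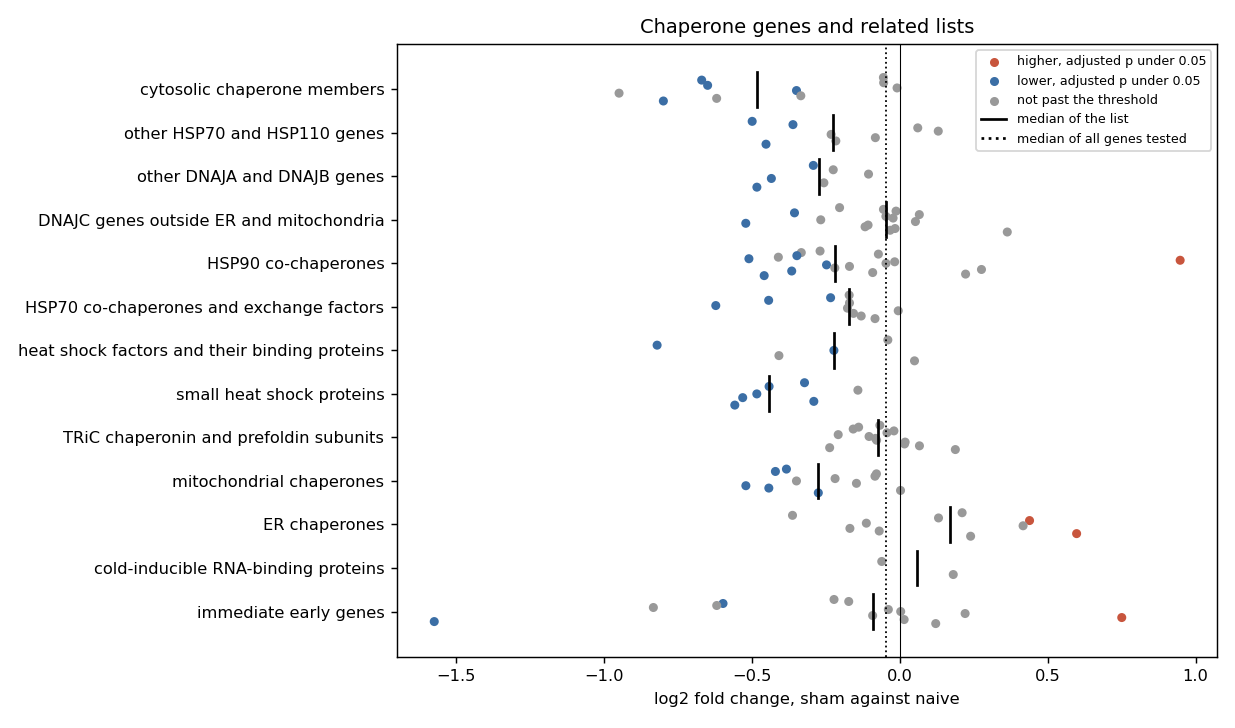
Log2 fold change, sham against naive (horizontal axis), of every tested gene of the chaperone group and the 12 related lists (rows); red and blue points passed an adjusted p under 0.05, grey points did not, black bars are list medians and the dotted line is the median of all tested genes. Most rows hold more grey than blue points, while 6 of the 7 small heat shock proteins are blue. The rows of TRiC and prefoldin, endoplasmic reticulum and cold-inducible genes hold 0 blue points. The endoplasmic reticulum row holds 2 red points, and the red point at 0.95 is Fkbp5. Scaled by library size alone, 7 of the list medians below 0 move above it.

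Genes whose pattern over the 10 libraries was most like that of the members were ranked by the root mean square difference of centred log2 CPM. Closest to the mean profile of Hspa1a, Hspa1b, Hsph1 and Dnajb1 was Atf3, a stress-induced transcription factor, with a difference of 0.216, followed by Hils1 (0.277) and Nek3 (0.285). Atf3 held 3.93, 4.06, 9.01, 9.64 and 5.18 CPM in naive and 4.94 to 6.11 CPM in sham libraries, so that it too was highest in naive 4 and naive 3. Closest to the mean profile of the other 6 members were Rwdd4a (0.0808), Prnp (0.0842) and Hdhd2 (0.0861). All 3 were highest in naive 4, at 34.3, 125 and 38.0 CPM, and were lower in sham, by 0.42, 0.38 and 0.34 on the log2 scale. The ranking used these same 10 libraries. That Atf3 and these 3 genes share the peaks and the direction of the members thus follows from how they were chosen, and is no separate result.

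**Figure D5:**
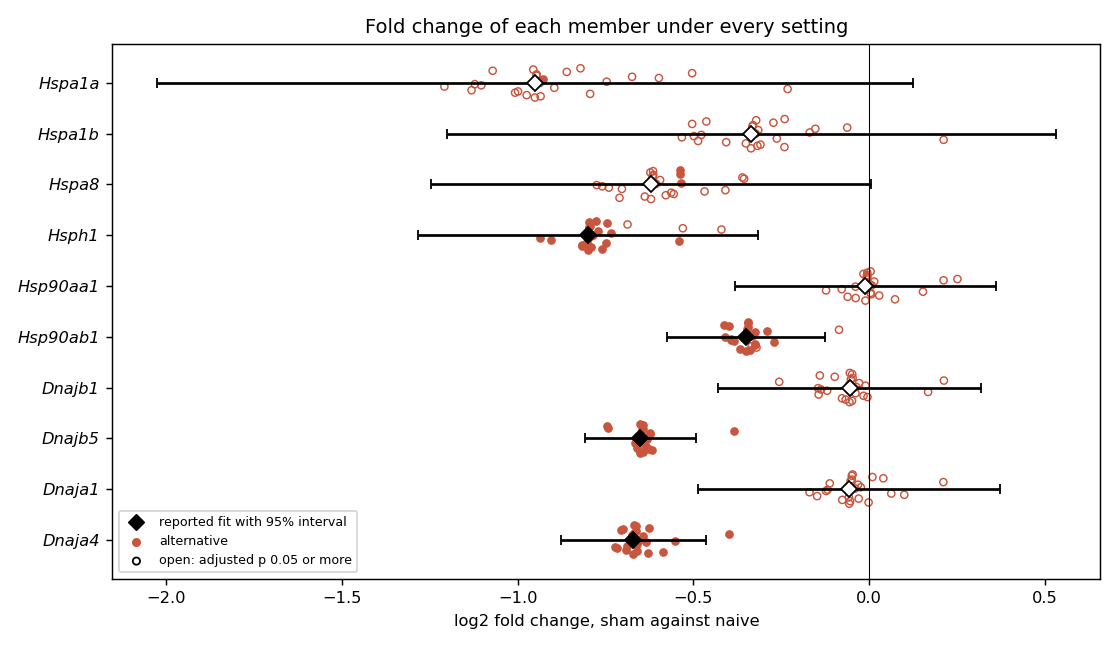
Log2 fold change of each chaperone gene, sham against naive, in the reported fit (diamond, with its 95% interval) and in each alternative (small points); open symbols have an adjusted p of 0.05 or more. Dnajb5 and Dnaja4 are filled in every setting, Hsph1 and Hsp90ab1 in most, and Hsp90aa1, Dnajb1 and Dnaja1 lie on both sides of 0. Hspa1b does so too, above 0 only without naive 4.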

How the data were processed

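Polyadenylated RNA of frozen ventricles was made into unstranded single-end libraries, per the labels' protocols. The authors deposited raw read counts per Ensembl gene, from HTSeq and GRCm38 per the file headers, beside the GC percent of each gene in the same deposited table, which served only a GC correction. TopHat2 2.1.1, Bowtie2, HTSeq, DESeq and edgeR are named without roles in the submitters' processing notes. The sources used here do not give the read length, the annotation release, or the treatment of reads with several matches or over exons of several genes.

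From 41264 rows, 574 repeats of an identifier were collapsed. Groups came from the treatment labels. Nothing beyond separate samples tells how the mice were housed or collected, and p-values therefore measure only how these samples vary, which may be technical. The floors cover counting error only.

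Genes were kept by filterByExpr (minimum count 10, minimum total 15), scaled with TMM factors and tested with the robust quasi-likelihood F test of edgeR 4.0.16 on the group alone. Adjusted p-values are Benjamini-Hochberg over all 13622 genes tested, at 0.05. Each SE is the absolute log2 fold change divided by the root of its F, and 95% intervals use the t distribution of the fit. CPM are TMM-normalised. Ratios were compared by exact permutation. The gene test was checked on simulated counts with known changes.

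The 10 members and all lists were chosen with earlier results of these data known. The text names all members, the 3 genes of smallest p in each related list, any gene called against its list, the 3 genes most like each of 2 mean profiles and genes overlapping or copying a member. Coordinates and exon lengths are of GENCODE M21 on GRCm38, and upstream sequences of RefSeq on GRCm38.p6, which matched 7 members. Alternatives were DESeq2 1.42.0, scaling by RLE, by upper quartile or by library size alone, other filters, limma 3.58.1 voom with sample weights, no robust estimation, a replicate block, 1 surrogate variable (sva 3.50.0), removal of the 20 most abundant genes, each library left out and Hspa1a and Hspa1b summed, in R 4.3.3. Chosen after seeing the data were a correction for GC, with and without the replicate block, Dnaja4 and Wdr61 summed, the spread without naive 4, and naive 1 and sham 4 left out together, the shallowest library and the one with the most genes counted.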

Additional observations from a re-analysis of the deposited data

How the results depend on the processing

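Dnajb5 and Dnaja4 were lower and past the threshold in all 24 and 25 alternatives run, at log2 fold changes of -0.74 to -0.38 and -0.72 to -0.40. The number of lower members was 4 in the reported fit and 2 to 5 over the alternatives, 2 with library size alone, and 3 to 4 with 1 library left out; no member was higher in any. Over all genes, library size alone gave 4473 higher and 283 lower genes and voom 3269 lower genes, and leaving out 1 library gave 2132 to 2461 higher and 1465 to 2249 lower genes. Genes near 0 changed sign without passing: Hsp90aa1 was at 0.0076 with upper quartile factors, 0.015 with no filter, 0.25 with library size alone, 0.21 with voom, 0.0018 with the replicate block, 0.0048 with 1 surrogate variable, and -0.12 to 0.15 with 1 library left out. Dnajb1 was at 0.21 with library size alone and -0.14 to 0.17 with 1 library left out. Dnaja1 was at 0.21 with library size alone, 0.0099 with the GC correction, 0.041 with GC correction and replicate block, and -0.17 to 0.10 with 1 library left out, and Hspa1b ranged from -0.53 to 0.21 there. The difference of the Hsp90aa1 to Hsp90ab1 log2 ratio was 0.27 to 0.44 with 1 library left out (exact permutation p of 0.0317 to 0.0952), and that of the Hspa1a plus Hspa1b to Hspa8 ratio 0.10 to 0.58. With GC correction and replicate block together Hsph1 missed the threshold (-0.69, adjusted p = 0.0565) and Hspa8 passed (-0.54, adjusted p = 0.0123). With voom 4 DNAJC genes, 4 immediate early genes and 1 chaperone of the endoplasmic reticulum were lower and 4 of the latter higher, the GC correction gave 5 lower HSP70 co-chaperones, and 1 TRiC or prefoldin gene was lower without naive 1. The causes of these shifts were not tested. Replicate numbers were not taken to pair the samples, since the labels name no shared source and same-numbered deviations correlated at r = 0.23, 0.04, 0.01, 0.29 and 0.29 across genes, over 0.1 in 3 of 5 pairs. As a hint from the data alone, 3 of 5 libraries in each group correlated best with their own number. With the replicate block 2592 genes were higher and 2801 lower, 8 co-chaperones of HSP90 and 5 members were lower, Hspa8 among them (-0.53, adjusted p = 0.00535), and the Hsp90 ratio difference of 0.36 was above 0 in 5 of 5 same-numbered pairs, with an exact sign-flip p of 0.0625, the smallest that 5 pairs can give. Depth limits Hspa1a, Hspa1b, Hsp90aa1 and Dnaja1, whose counting noise was 7.97 to 21.8% of the mean.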

Other observations

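Naive 3, the highest library for Dnajb1, was also the highest of the 10 libraries for 7 of the 13 immediate early genes: Fos, Fosb, Jun, Ier2, Dusp1, Btg2 and Nr4a1. Egr1 and Zfp36 were highest in naive 2, Jund in naive 1, Atf3 in naive 4, Junb in sham 2 and Ier3 in sham 4. These genes were looked at by library after the Dnajb1 values were seen, and the share of all tested genes highest in naive 3 was not counted. Fos held 5.24, 20.8, 46.4, 10.4 and 7.51 CPM in naive libraries 1 to 5 and 7.02 to 14.4 CPM in sham libraries. Egr1 held 51.2, 161, 149, 63.3 and 94.8 CPM in naive and 47.7 to 102 CPM in sham libraries. Nr4a1 held 37.7, 80.0, 176, 80.2 and 54.2 CPM in naive and 26.9 to 33.0 CPM in sham libraries.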
